A study of Mus musculus with 6 samples.

Results

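Broad CDK6 regions over promoters were described in mouse precursor B cell lines transformed by BCR-ABL, where CDK6 had been mapped by ChIP-seq through an HA tag. Peaks of the 4 anti-HA lists that shared 1 bp or more were merged, and regions on chromosomes 1 to 19 and X with a peak in all 4 lists were kept. A broad promoter region is one of these with a merged width of at least 1500 bp that reaches into the promoter window of a protein-coding transcript, which spans 2000 bp upstream of the start and 200 bp downstream. Of 56748 merged regions, 16376 had a peak in all 4 lists, and 641 of these were broad promoter regions. The other promoter regions in all 4 lists, 6425 in number, were under 1500 bp wide and are called narrow here, and 544 regions were broad but lay outside the promoter windows. The 641 regions reached the promoter windows of 708 of the 21842 annotated protein-coding genes.

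The cells descend from bone marrow of C57BL/6 Cdk6-/- mice that was transduced with a retroviral vector carrying BCR-ABLp185 and GFP, and they lack endogenous CDK6. They are pre/pro-B cell lines, and chromatin was crosslinked with DSG and formaldehyde. They overexpressed an HA-tagged form of wildtype CDK6 (CDK6-WT, n = 2 libraries) or of the kinase-inactive mutant CDK6-K43M (n = 2 libraries). The comparison of the variants asks whether kinase activity changes how CDK6 lies on chromatin. Nothing states whether the replicates came from separate cultures or cell lines, so a p-value here measures only the spread between these libraries, which may be technical, and 2 libraries against 2 cannot give an exact permutation p below 0.333. No list from cells without the tag was analysed here, and the tagged proteins were overexpressed. The lists held 34729 to 39797 peaks. Relative depth was estimated from the lowest local background of each list and the width of its smallest peak, and is not a count of reads. In treatment reads per kb, it was 10.1 in the first CDK6-WT library, 10.5 in the second, 12.04 in the first CDK6-K43M library and 9.56 in the second. After the scaling by the peak caller it was 9.78 in both replicate 1 libraries, and 9.65 and 9.56 in the replicate 2 libraries of CDK6-WT and CDK6-K43M. The part of depth in the results that follow was not tested.

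CDK6 is a cyclin-dependent kinase of the G1 phase that also takes part in transcription, where it joins chromatin complexes through DNA-binding factors since it has no DNA-binding domain of its own. Many mammalian promoters lie in CpG islands, stretches in which CpG dinucleotides have escaped the loss seen in the rest of the genome, and such promoters often serve genes that all cells use. Wide domains over promoters and first introns are known for chromatin marks and cofactors at genes of cell identity, which in precursor B cells include transcription factors, surface receptors and the recombination genes.

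The 8 windows here show the sequence at the strongest summit, since CpG content set groups of broad regions apart. They are the widest members, among the 10 widest regions and the widest regions of each gene list, 4 from regions that were longer in both replicate 2 lists and 4 from regions longer in both replicate 1 lists, leaving out windows over an annotated UTR. Each window has 151 bp on the plus strand of GRCm38 (mm10), from RefSeq, read 5′ to 3′, with the summit in its centre and every CpG in capitals. The windows from regions longer in replicate 2 lie at Hist1h1a (chr13:23763751-23763901, 11 CpGs), Maml2 (chr9:13298211-13298361, 5 CpGs), Fchsd2 (chr7:101092706-101092856, 2 CpGs) and Osr2 (chr15:35295862-35296012, 5 CpGs).
Hist1h1a: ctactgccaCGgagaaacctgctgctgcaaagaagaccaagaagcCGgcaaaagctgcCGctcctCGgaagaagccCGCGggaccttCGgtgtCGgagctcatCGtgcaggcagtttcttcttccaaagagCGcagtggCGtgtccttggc
Maml2: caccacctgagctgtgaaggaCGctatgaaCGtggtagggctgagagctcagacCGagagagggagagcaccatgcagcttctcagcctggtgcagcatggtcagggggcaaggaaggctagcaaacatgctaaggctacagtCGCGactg
Fchsd2: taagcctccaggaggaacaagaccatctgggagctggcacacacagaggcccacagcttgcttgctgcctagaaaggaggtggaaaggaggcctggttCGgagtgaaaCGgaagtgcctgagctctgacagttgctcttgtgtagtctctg
Osr2: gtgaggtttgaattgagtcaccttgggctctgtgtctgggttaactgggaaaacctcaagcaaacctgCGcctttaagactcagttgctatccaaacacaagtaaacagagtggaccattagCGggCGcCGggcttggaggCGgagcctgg
The windows from regions longer in replicate 1 lie at Hnrnpdl (chr5:100038907-100039057, 22 CpGs), Cd24a (chr10:43578393-43578543, 12 CpGs), Kmt2e (chr5:23432845-23432995, 8 CpGs) and Setd5 (chr6:113076337-113076487, 20 CpGs).
Hnrnpdl: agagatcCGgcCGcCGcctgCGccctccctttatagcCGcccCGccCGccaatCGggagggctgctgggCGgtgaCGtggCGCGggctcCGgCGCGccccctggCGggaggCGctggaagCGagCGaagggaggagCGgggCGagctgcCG
Cd24a: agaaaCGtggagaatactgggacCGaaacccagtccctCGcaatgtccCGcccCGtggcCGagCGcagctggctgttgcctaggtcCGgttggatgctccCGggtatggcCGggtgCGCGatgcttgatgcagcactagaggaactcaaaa
Kmt2e: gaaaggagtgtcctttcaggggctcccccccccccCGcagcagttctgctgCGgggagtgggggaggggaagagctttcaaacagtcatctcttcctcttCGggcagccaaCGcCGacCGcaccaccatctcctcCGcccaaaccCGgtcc
Setd5: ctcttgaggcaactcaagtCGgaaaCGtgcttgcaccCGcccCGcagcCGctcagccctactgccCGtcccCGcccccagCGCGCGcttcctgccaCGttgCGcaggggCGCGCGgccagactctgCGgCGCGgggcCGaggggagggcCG
The Hist1h1a summit lies 160 bp past the start of this linker histone gene and the Maml2 summit 329 bp past its start. The CpG counts of the groups overlap in these windows, with Kmt2e at 8 and Hist1h1a at 11. The other 6 summits lie upstream of the nearest coding start, from 82 bp at Fchsd2 to 1521 bp at Kmt2e.

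The broad promoter regions were 1500 to 7195 bp wide, with a median of 1798 bp and quartiles of 1604 and 2135 bp. Width chose the members and is given as a description only. The widest covered the promoter of Tnrc18 on chromosome 5 (7195 bp), where the 4 lists covered much alike lengths (5592 and 5186 bp in CDK6-WT, 6058 and 5773 bp in CDK6-K43M), followed by a stretch of the histone cluster on chromosome 13 with Hist1h1a, Hist1h3a and Hist1h4a (5599 bp) and one with Hist1h1b and Hist1h3i (5504 bp). The rest of the 10 widest lay at Maml2, a Notch coactivator (4864 bp), Fchsd2 (4742 bp), the zinc finger gene Osr2 (4655 bp), Litaf and Snn (4460 bp), Lef1 (4399 bp), Hsd17b11 (4335 bp), and P2rx3 and Ssrp1 (4304 bp). Just inside the limit lay Cd164 and Tac4 at 1500 bp and Bcl6 at 1501 bp, and just outside it Pcdh9, Itpka and Ptgr1, each at 1499 bp.

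The merged width overstates what any one list showed. A median of 580 bp of each region, or 30.2% of its width, was covered in all 4 lists, and the regions held a median of 7 peaks over the lists. Only 17 of the 641 had 1500 bp or more covered in all 4 lists, 14 had no base pair that all 4 lists covered, and 470 had 1500 bp or more covered in at least 1 list. A single peak of 1500 bp or more was found in at least 1 list in 353 regions. The name broad therefore fits 353 of the regions by one unbroken peak and 470 by the sum of the peaks of 1 list, and the rest are this wide only through peaks of several lists. Without the CDK6-K43M replicate 1 list, 400 regions would have met the rule in place of 641.

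Covered length, the sum of the base pairs under peaks of 1 list within a region, split more of the broad regions by replicate number than by variant. Its median over the 641 regions was 1219 bp in CDK6-WT replicate 1, 1228 bp in CDK6-WT replicate 2, 1423 bp in CDK6-K43M replicate 1 and 1261 bp in CDK6-K43M replicate 2. These near-equal medians hide opposite regions. In 232 regions (36.2%) both replicate 2 lists covered more than both replicate 1 lists, where 26.3% of all 16376 regions did so, and in 270 (42.1%) both replicate 1 lists covered more, where 40.3% of all regions did so. The other 139 overlapped. Since the rule asked for a wide union, a region with short peaks under one number needed long ones under the other, and these counts are a description.

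In the 232 regions longer in replicate 2, the median covered length was 831 bp and 1762 bp in CDK6-WT replicates 1 and 2, and 987 bp and 1863 bp in CDK6-K43M replicates 1 and 2. In the 270 regions longer in replicate 1 it was 1434 bp and 826 bp in CDK6-WT and 1577 bp and 796 bp in CDK6-K43M. The order in each group was fixed by how the groups were defined. Across the 641 regions, the Spearman correlation of covered length was 0.79 between the replicate 1 lists and 0.86 between the replicate 2 lists, and −0.26 to −0.17 for lists of different number, values that share the rule and the depth of each library. What the replicate number marks (a day, a culture, a batch) is not given in the sources used here. Without the CDK6-K43M replicate 1 list, 106 of 400 broad regions were longer in replicate 1 and 258 in replicate 2. Without CDK6-K43M replicate 2, 154 of 476 were longer in replicate 2 and 267 in replicate 1. With a list left out, 1 list alone stands for its number, and the matching shares over all regions were not computed.

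**Figure D1:**
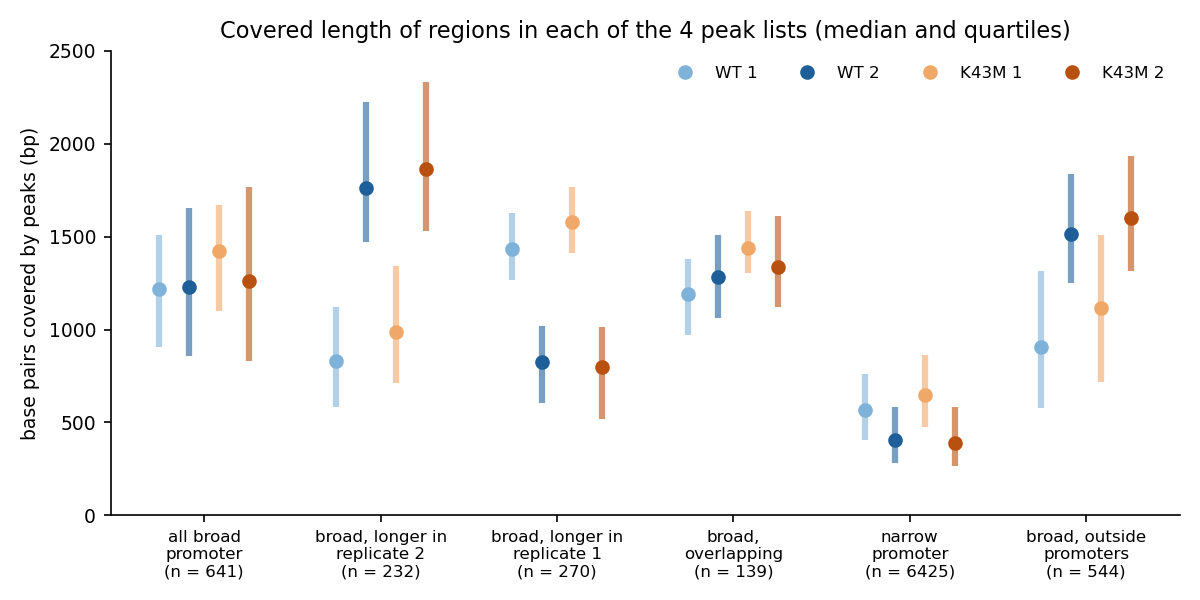
Base pairs covered by peaks (y axis, bp) in each of the 4 lists, as the median over regions (points) with quartiles (bars), for the 641 broad promoter regions, their 3 groups by replicate number, narrow promoter regions and broad regions outside promoters. The medians of all broad regions lie between 1219 and 1423 bp, while the groups longer in replicate 2 or replicate 1 were defined by this measure and part by construction.

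**Figure D2:**
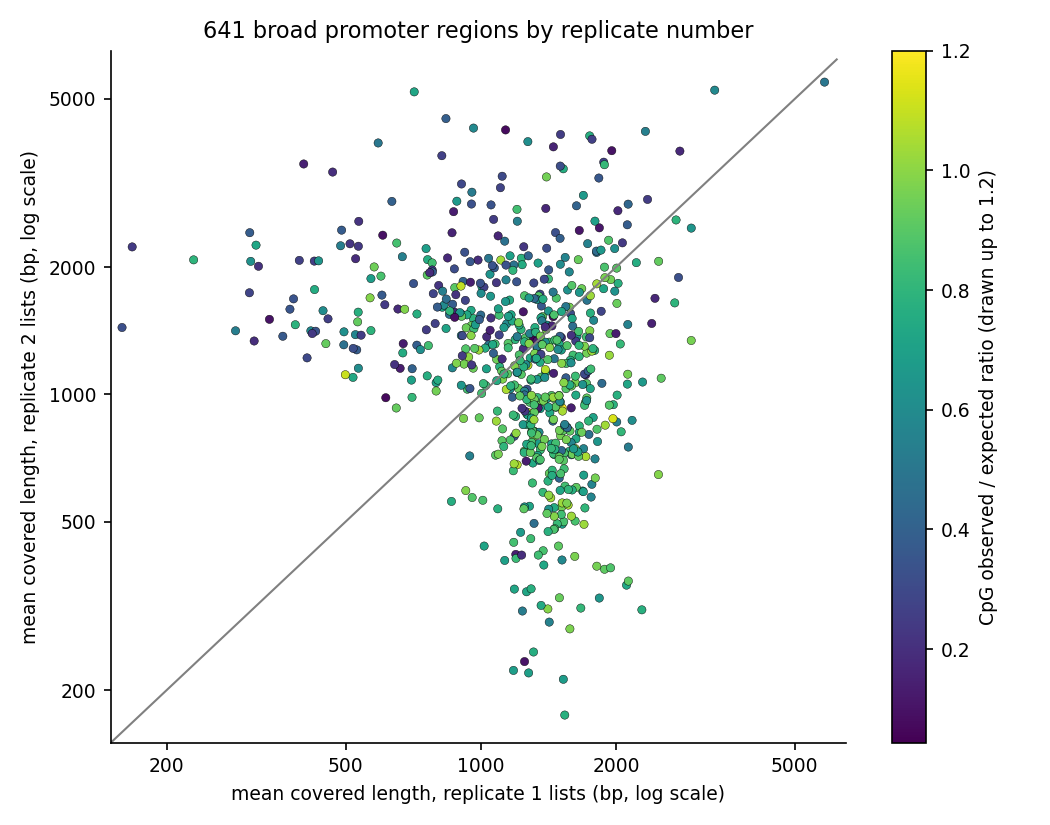
Each point is 1 of the 641 broad promoter regions, with its mean covered length in the 2 replicate 1 lists (x axis, bp, log scale) and in the 2 replicate 2 lists (y axis, bp, log scale), coloured by the CpG observed to expected ratio within 500 bp of the summit. Dark points, poor in CpG, lie mostly above the line of equality and light points mostly below it.

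The regions that were longer in replicate 2 were CpG-rich less often than those longer in replicate 1. A region was called CpG-rich when the 500 bp to either side of its strongest summit had a CpG observed to expected ratio of at least 0.6 and a GC content of at least 50%. By that measure, which the rule did not use, 88 of the 232 regions longer in replicate 2 were CpG-rich (37.9%, 95% Wilson interval 31.9 to 44.3) against 224 of the 270 longer in replicate 1 (83%, 78.0 to 87). The difference was −45.0 percentage points (95% Newcombe interval −52.3 to −37.0). It was smaller, with the same sign, when the groups were set from the CDK6-WT lists alone (−35.0) or from the CDK6-K43M lists alone (−35.3). The summit that placed the window came from the same lists that set the groups. With the window at the nearest coding start the difference was −38.8 (−45.9 to −31.1). These intervals cover counting error over regions only, and regions are not replicate libraries.

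The CpG profile about the summit was lower in the regions longer in replicate 2. The 100 bp just after the summit held a mean of 5.16 CpGs in regions longer in replicate 2 and 9.43 in regions longer in replicate 1, against 8.49 in narrow promoter regions and 2.21 in broad regions outside promoters. At 900 to 1000 bp downstream on the plus strand, regions longer in replicate 1 still held 3.60 CpGs per 100 bp and narrow regions 2.15. Regions longer in replicate 2 held 2.65 there, so that both groups of broad regions lay above the narrow ones at this distance.

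**Figure D3:**
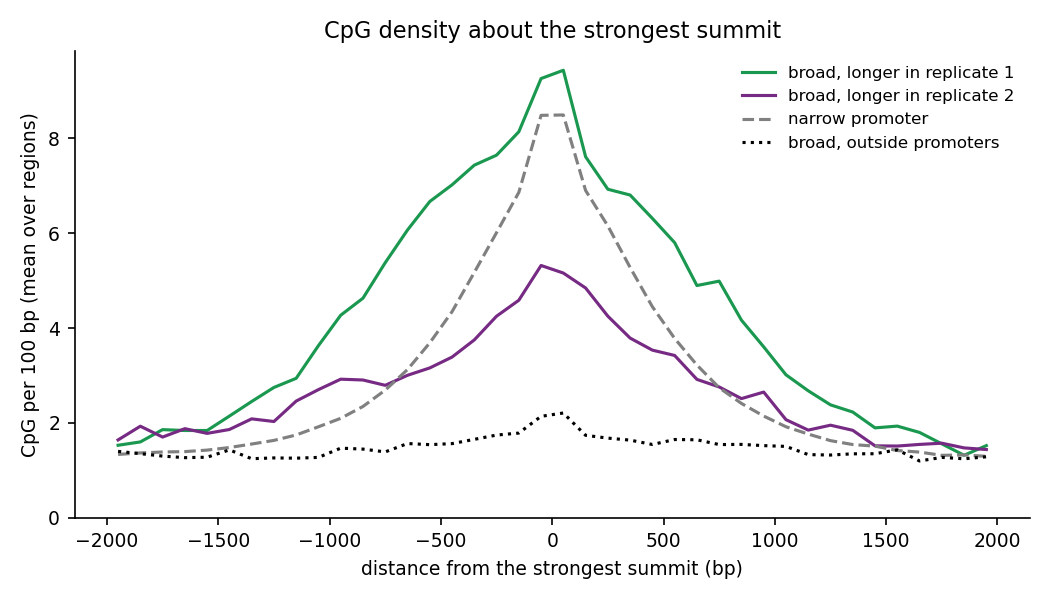
Mean number of CpGs per 100 bp (y axis) by distance from the strongest summit in bp (x axis, plus strand) for broad promoter regions longer in replicate 1 or replicate 2, narrow promoter regions and broad regions outside promoters. Regions longer in replicate 1 peak at 9.43 CpGs per 100 bp and stay above the narrow regions out to 1000 bp on both sides, whereas regions longer in replicate 2 peak at 5.32.

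As a whole, 409 of the 641 broad promoter regions were CpG-rich (63.8%, 60.01 to 67.4), against 72.4% of narrow promoter regions (71.3 to 73.4) and 4.96% of broad regions outside promoters. The difference from narrow regions, −8.55 points (−12.5 to −4.76), was not seen within the groups by replicate number. Among regions longer in replicate 2, 37.9% of broad and 39.0% of narrow regions were CpG-rich (−1.09 points, −8.26 to 6.33), among those longer in replicate 1, 83% and 80.7% (2.31 points, −2.77 to 6.51), and among overlapping ones 69.8% and 65.3% (4.48 points, −3.88 to 11.8). The pooled difference also turned to 10.3 points (6.30 to 14.3) with 1000 bp to either side of the summit and to 4.30 (2.05 to 6.50) with a width limit of 1000 bp, and without CDK6-K43M replicate 2 it was −3.92 with an interval that included 0 (−8.37 to 0.26). The CpG-rich share fell with width among the broad regions, from 77.9% at 1500 to 1600 bp to 66.9% up to 2000 bp, 55.7% up to 3000 bp and 26.2% above that (42 regions). The share that was longer in replicate 2 went the other way, at 18.2%, 29.4%, 50% and 88.1%, and the part of each in the other was not tested.

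Over all 641, broad regions reached further into the gene than away from it, but those longer in replicate 1 extended a median of 888 bp downstream and 867 bp upstream. Of the 641, 581 held a coding start, and from the start nearest the summit they extended a median of 1099 bp downstream and 742 bp upstream. The share of covered base pairs downstream, as the median of each list, averaged 56.9% ± 3.17 (mean ± SD, n = 4 lists), against 49.1% ± 1.28 in narrow promoter regions. The SD spans both variants and both replicate numbers. The 4 lists gave 53.2%, 59.6%, 55.4% and 59.6% for broad regions in the order CDK6-WT 1 and 2, CDK6-K43M 1 and 2. All 4 values were above the 4 of the narrow regions, which lay between 47.3% and 50.5%. The downstream side was the longer one in 371 of 581 broad regions (63.9%) and in 53.8% of narrow ones, a difference of 10.0 points (5.83 to 14.1). The summit itself lay within 500 bp of a coding start in 71.8% of broad and 87.7% of narrow regions (−16.0 points, −19.6 to −12.5). Width, which the rule used, limits how far a summit can lie from a start in the same region. This difference is therefore a description only. Within the groups by replicate number, a comparison added after the values were seen, the downstream side was the longer one in 77.7% of broad and 61.7% of narrow regions longer in replicate 2 (16.02 points, 8.33 to 23.0), in 70.4% and 55.4% of overlapping ones (14.999, 6.11 to 22.7), and in 49.6% and 52.3% of those longer in replicate 1 (−2.70, −9.002 to 3.62). The summit lay within 500 bp of a start less often in broad than in narrow regions in each of the 3 groups (−9.04, −11.8 and −11.0 points for longer in replicate 2, longer in replicate 1 and overlapping). The limit set by width holds for these differences too.

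The reach into the gene differed between the replicate groups. The downstream side was the longer one in 157 of 202 regions longer in replicate 2 (77.7%) and in 126 of 254 longer in replicate 1 (49.6%), a difference of 28.1 points (19.4 to 36.1). Regions longer in replicate 2 lay on average 54.5% in introns and those longer in replicate 1 30.7%, and the genes at them had a median length of 50.7 kb and 23.2 kb. Coding starts on both strands within 1000 bp, as at divergent promoters, were found in 12 of 232 regions longer in replicate 2 (5.17%) and in 43 of 270 longer in replicate 1 (15.9%), a difference of −10.8 points (−16.1 to −5.43). Over all broad regions that share was 10.3%, and over narrow ones 11.5% (−1.17 points, −3.44 to 1.53). Narrow regions split by replicate number went the same way. Those longer in replicate 2 and in replicate 1 lay 38.3% and 25.5% in introns, at genes with a median length of 36.3 kb and 22.4 kb. Starts on both strands were found in 5.20% and 13.8% of them.

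Both CDK6-K43M lists covered more of the broad regions, by the median, than both CDK6-WT lists. The median was 1224 ± 6.36 bp in CDK6-WT (SD, n = 2) and 1342 ± 115 bp in CDK6-K43M (SD, n = 2), with CDK6-K43M 119 bp longer (exact two-sided permutation p = 0.333, the smallest this design can give, so that it could not pass a threshold of 0.05). Within replicate 1 the CDK6-K43M list was 204 bp longer and within replicate 2 33.0 bp longer. By the estimate of relative depth, the deeper library was the CDK6-K43M one in the first pair and the CDK6-WT one in the second. Both CDK6-K43M lists exceeded both CDK6-WT lists in 64 of the 641 regions (9.98%, where 12.8% of all regions did so), and both CDK6-WT lists exceeded both CDK6-K43M lists in 11 (1.72%, where 4.32% of all regions did so). Neither share was above that over all regions. The median was also longer in CDK6-K43M in broad regions outside promoters, by 146.5 bp. In narrow promoter regions it was longer by 32 bp, with 83 bp within replicate 1 and −19 bp within replicate 2.

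Among the regions that were longer in both CDK6-K43M lists, those with the largest mean ratio lay at Crebzf, Prex1 and Akirin2. At Crebzf, a bZIP protein gene, the lists covered 1064 and 274 bp in CDK6-WT and 1309 and 1097 bp in CDK6-K43M. At Prex1, a Rac exchange factor gene, they covered 724 and 444 bp against 1434 and 993 bp, with no base pair covered in all 4 lists. At Akirin2 they covered 450 and 491 bp against 1402 and 694 bp. Among those longer in both CDK6-WT lists the largest ratios lay at Pced1b (1305 and 1390 bp against 1166 and 465 bp), Abhd17c (971 and 1468 bp against 795 and 903 bp) and Dyrk3, a protein kinase gene (1004 and 1269 bp against 888 and 797 bp). At Crebzf CDK6-WT replicate 2, at Akirin2 CDK6-K43M replicate 1 and at Pced1b CDK6-K43M replicate 2 stood apart from the other 3 lists, and the direction was chosen by the rule that named these regions.

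Fold enrichment at the summit, the authors' ratio of the pileup to the local background, was no higher in either variant. Its median over the 641 regions was 10.7 and 8.19 in CDK6-WT and 10.6 and 7.79 in CDK6-K43M, a difference of −0.23 (exact two-sided permutation p = 0.667) whose sign changed with the mean in place of the median (0.20), without CDK6-WT replicate 1 (0.58) and without CDK6-K43M replicate 2 (1.9602). The replicate 1 values were above the replicate 2 values in both variants, as they were in narrow promoter regions (10.4 and 6.42, 10.6 and 6.04). The fold was higher in both CDK6-K43M lists in 44 regions (6.86%, background 7.06%) and in both CDK6-WT lists in 26 (4.06%, background 6.36%). It was higher in both replicate 2 lists in 147 regions (22.9%, background 20.2%) and in both replicate 1 lists in 363 (56.6%, background 52.9%). These 2 shares were 6.74% and 75.9% in narrow promoter regions, and 53.1% and 20.0% in broad regions outside promoters. The summits rested on medians of 32, 24, 40 and 22 reads in the order above, so that 1 read more or less moved a fold by a few percent.

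Genes of several lists carried broad promoter regions at higher shares than protein-coding genes at large, of which 708 of the 7095 with a promoter region in all 4 lists did so (9.98%). The shares were 48% for SR and hnRNP proteins, which bind and process pre-mRNA (12 of 25), 47.7% for replication-dependent histones (21 of 44), 46.9% for B-lineage transcription factors (15 of 32), 23.1% for pre-B cell receptor, surface and recombination genes (6 of 26) and 21.4% for enzymes of histone methylation and acetylation with the BET proteins (9 of 42). They were lower at the other end, with 11 of 151 Zfp zinc finger genes (7.28%), 1 of 56 cytosolic ribosomal protein genes (1.79%), and none of 53 OXPHOS subunit genes and of 60 mitochondrial ribosomal protein genes, where a count of 0 allows up to 5.66% and 5%. These shares are descriptions, with no test, of lists drawn up with earlier results of these data known. In all, 97 listed genes had a broad region, or 60 without the CDK6-K43M replicate 1 list, where the Zfp genes fell from 11 to 3 and the cytosolic ribosomal protein genes from 1 to 0.

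**Figure D4:**
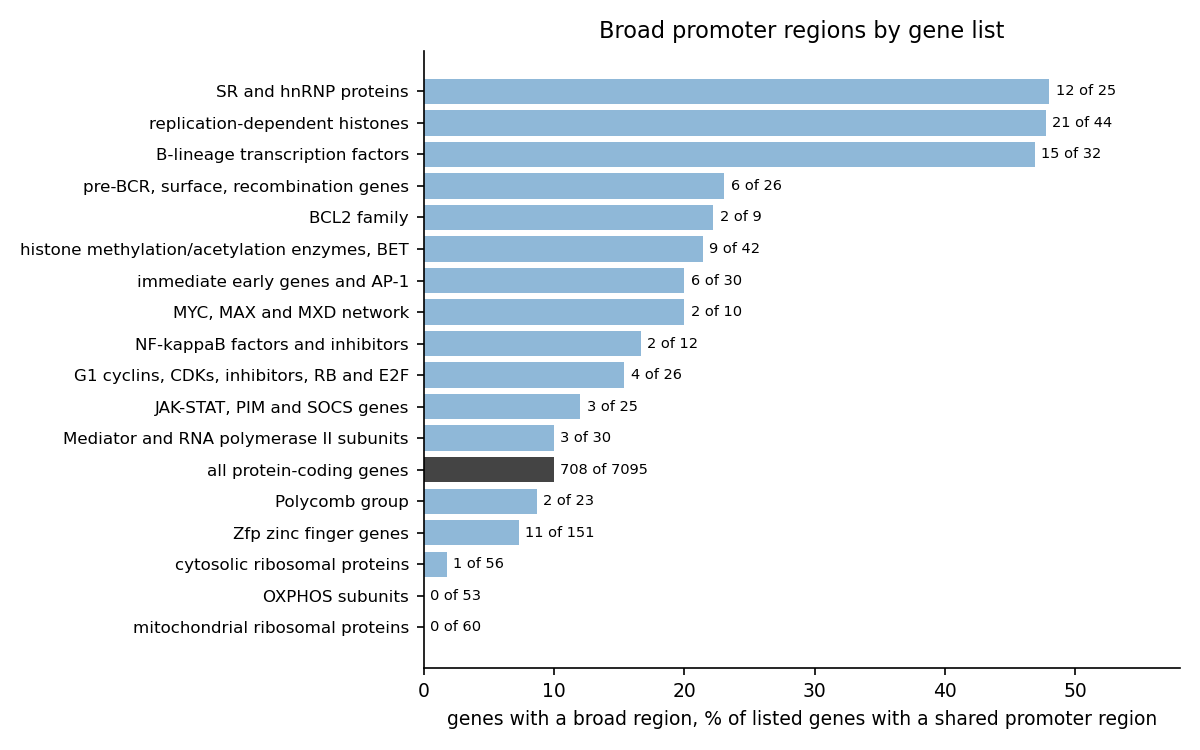
Share of the genes of each list with a promoter region in all 4 lists that had a broad one (x axis, percent), for lists with at least 9 such genes, with the counts beside the bars and all protein-coding genes in dark grey (708 of 7095, 9.98%). SR and hnRNP, histone and B-lineage transcription factor genes lie at 46.9 to 48%, and OXPHOS and mitochondrial ribosomal protein genes at 0.

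Histone genes were broad in the replicate 2 lists. The 21 replication-dependent histone genes with a broad region, which encode the bulk histones made in S phase, shared 14 regions, and 18 of the genes lay in regions longer in replicate 2, 1 in a region longer in replicate 1 (Hist2h4) and 2 in overlapping ones (Hist1h1c and Hist4h4), these 3 being named after their values were seen. At Hist1h1b and Hist1h3i the lists covered 624 and 5090 bp in CDK6-WT and 798 and 5302 bp in CDK6-K43M, and the fold at the summit was 5.45 and 33.4 in CDK6-WT and 6.77 and 41.6 in CDK6-K43M. At Hist1h1a they covered 2702 and 5060 bp and 3932 and 5429 bp, with 42 and 114 summit reads in CDK6-WT and 76 and 97 in CDK6-K43M. The first region was thus short under replicate 1 in both variants, while the second was long in every list and longer still under replicate 2. Histone genes are close copies of each other, and the authors removed reads that mapped to several places, so their coverage is uncertain.

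The transcription factors of the B lineage fell into both groups. Of the 15 genes, 6 lay in regions longer in replicate 2, 5 in regions longer in replicate 1 and 4 in overlapping ones. Lef1, a partner of β-catenin active in early B cells, had a pair of broad regions, with 2082 and 4349 bp in CDK6-WT and 2569 and 4031 bp in CDK6-K43M at the one upstream of its start. Irf8, an interferon regulatory factor of the B lineage (817 and 2463 bp, 253 and 2671 bp), and the zinc finger repressor gene Zeb2 (571 and 1872 bp, 482 and 2317 bp) were long under replicate 2 in both variants. No base pair of the Irf8 region was covered in all 4 lists, and its strongest summit lay 2105 bp past the start. Runx1 (1545 and 1399 bp, 1766 and 1060 bp) and Id3, an inhibitor of E proteins (1644 and 733 bp, 1948 and 675 bp), were longer under replicate 1, and this pair was chosen after its values were seen, to show that group. Foxo1, which drives the recombination genes, overlapped (1302 and 649 bp, 1245 and 1695 bp). Without the CDK6-K43M replicate 1 list 9 of these genes had a broad region, and without CDK6-K43M replicate 2, 10.

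Surface and recombination genes held regions of both kinds. Rag2, a subunit of the V(D)J recombinase, was covered over 173 and 2269 bp in CDK6-WT and 162 and 2198 bp in CDK6-K43M, in a region with a CpG ratio of 0.24. Cd93, a surface glycoprotein of early B cells, was covered over 979 and 3150 bp and 833 and 3143 bp, with a CpG ratio of 0.29. Syk, the kinase next to the pre-B cell receptor, was covered over 213 and 1144 bp and 560 and 1780 bp. Cd24a, by contrast, was longer under replicate 1 (2006 and 1060 bp, 2084 and 1573 bp), and its CpG ratio was 0.82. Of the 6 genes of this list with a broad region, 3 were longer in replicate 2 and 3 in replicate 1.

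**Figure D5:**
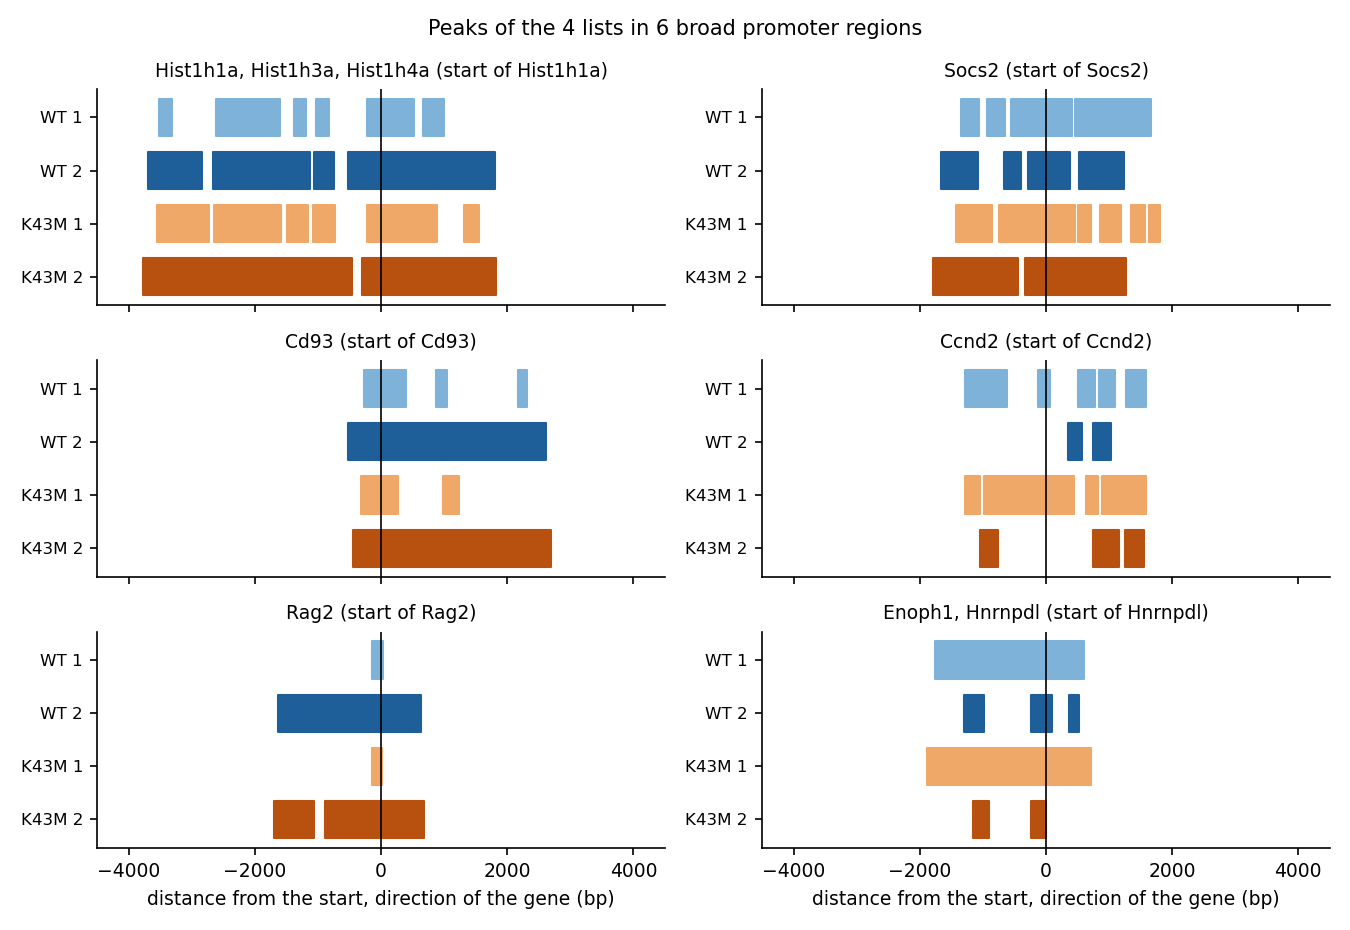
Peaks of the 4 lists (rows) in 6 broad promoter regions, drawn as bars by distance in bp from the coding start nearest the summit (x axis, in the direction of the gene). At Hist1h1a, Cd93 and Rag2 the replicate 2 lists of both variants cover more than the replicate 1 lists, at Ccnd2 and Hnrnpdl the reverse, and at Socs2 the 4 lists cover 2229 to 2944 bp.

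The listed SR and hnRNP genes and the listed chromatin enzyme and BET genes with a broad region lay mostly or wholly in regions longer in replicate 1. Of the 12 SR and hnRNP genes with a broad region, 11 were longer in replicate 1, none in replicate 2 and 1 overlapped. Hnrnpdl (2362 and 799 bp in CDK6-WT, 2611 and 494 bp in CDK6-K43M), Hnrnpa1 (1958 and 467 bp, 1814 and 305 bp) and Hnrnpul1 (1759 and 241 bp, 1913 and 419 bp) were among them. Hnrnpa2b1, which shares its region with Cbx3, was more even (2419 and 2094 bp, 2558 and 2036 bp). The 9 genes with a broad region on the list of histone methylation and acetylation enzymes and BET proteins, which also holds Tet3, a DNA dioxygenase gene, were longer in replicate 1, among them Brd2 (2366 and 1280 bp, 1882 and 953 bp), Kmt2e (2046 and 884 bp, 2298 and 853 bp), Setd5 (2055 and 1155 bp, 1968 and 838 bp) and the histone methyltransferase gene Nsd2 (1943 and 572 bp, 1995 and 1181 bp). That list is not complete. Setd7, a lysine methyltransferase gene outside it, lay in a region longer in replicate 2 (1127 and 1962 bp, 1702 and 1790 bp), as did the chromatin remodeller gene Chd7 (827 and 2065 bp, 860 and 2141 bp), both named after their values were seen. Over all 708 genes, 320 were longer in replicate 1, 242 in replicate 2 and 151 overlapped, some genes counting under more than 1 heading. Without the CDK6-K43M replicate 1 list 4 of the 12 and 4 of the 9 genes had a broad region.

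Some signalling and cell cycle genes that act with BCR-ABL or CDK6 had a broad region. Among G1 regulators these were Ccnd2, the cyclin D2 gene (1699 and 504 bp in CDK6-WT, 2562 and 998 bp in CDK6-K43M), the inhibitor gene Cdkn2c (1246 and 2122 bp, 1216 and 2078 bp), Rb1 (1165 and 1053 bp, 1405 and 1734 bp) and Cdkn1b (771 and 1062 bp, 1479 and 444 bp), 4 of 26 genes. Among JAK-STAT genes these were Socs2 (2744 and 2229 bp, 2698 and 2944 bp), Jak2 (738 and 1479 bp, 485 and 1782 bp) and Bcl2l1 (1203 and 1306 bp, 1466 and 1274 bp), 3 of 25. Socs2, a STAT5 target that restrains cytokine signalling, had a covered length of at least 2229 bp in each list, with 1580 bp common to all 4. Myc was broad (780 and 1197 bp, 1678 and 1651 bp), as were the AP-1 genes Jun (2037 and 1987 bp, 2403 and 2113 bp), Junb (1623 and 769 bp, 1767 and 520 bp) and Jund (1886 and 844 bp, 1979 and 1043 bp). The G1 count fell to 2 without CDK6-WT replicate 2 or CDK6-K43M replicate 1, and the immediate early and AP-1 count, 6 of 30, fell to 3 without CDK6-K43M replicate 1. The shares were 15.4% for G1 regulators, 12% for JAK-STAT genes and 20% for immediate early and AP-1 genes. Over all genes with a promoter region in all 4 lists the share was 9.98%, and the differences were not tested.

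The remaining lists held few genes with a broad region. In the MYC, MAX and MXD network these were 2 of 10, Myc and the repressor gene Mnt (1528 and 1048 bp in CDK6-WT, 1787 and 637 bp in CDK6-K43M). Among NF-κB factors and inhibitors they were 2 of 12, Rel (1928 and 1929 bp, 2091 and 1355 bp) and the inhibitor gene Tnfaip3 (547 and 1520 bp, 1127 and 1345 bp). Among Mediator and RNA polymerase II subunits they were 3 of 30, with Polr2a, the largest polymerase subunit, covered over 1682 and 1190 bp and 1834 and 1107 bp. Mnt and Polr2a were thus longer under replicate 1 and Tnfaip3 under replicate 2, while Rel overlapped. The BCL2 family had 2 of 9, Bcl2l1 and Mcl1, the Polycomb group had 2 of 23, Eed and Phc2, and of 2 olfactory receptor genes with a promoter region in all 4 lists none was broad. Without CDK6-K43M replicate 1 the BCL2 count was 0, the Polycomb count 1 and the NF-κB count 1. The Polycomb count was also 1 without any one of the other libraries, the BCL2 count was 1 without CDK6-WT replicate 1, and the MYC network count was 1 without CDK6-K43M replicate 2.

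The promoters of Cdk6 (1431 bp), Cdk4 (1312 bp) and Nrf1 (1316 bp) had peaks in all 4 lists but lay just under the width limit. The cells were Cdk6-/- and expressed tagged CDK6 from a vector. What the knockout allele and the vector carry of Cdk6 was not compared with the peaks there. Of 7 genes listed as CDK6 targets that had a promoter region in all 4 lists, none had a broad one, a count that allows up to 42.9%, and the widest was 1252 bp. Among OXPHOS subunits the widest region lay at Ndufb5 (1449 bp), and the median of the widest regions was 660 bp, against 843 bp over all genes with a promoter region in all 4 lists. The 1 cytosolic ribosomal protein gene with a broad region, Rpl7, shared its region of 2737 bp with Rdh10 (1717 and 2152 bp, 2297 and 1828 bp). On chromosome X none of 72 promoter regions was broad, where a count of 0 allows up to 4.17%, against 6.42% to 11.9% on the autosomes.

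Motifs of 12 factors were searched within 100 bp of the strongest summit on both strands. A match is a description of the letters and not a site. Broad regions held the ETS motif (CCGGAAGT) in 3.43% against 8.78% of narrow promoter regions (−5.35 points, −6.71 to −3.51), the NRF-1 motif (GCGCATGCG) in 2.03% against 3.80% (−1.77, −2.74 to −0.29), the YY1 motif (AAGATGGCG) in 1.56% against 3.04% (−1.47, −2.32 to −0.13) and the EBF motif (CCCNNGGGA) in 10.5% against 7.28% (3.17, 0.93 to 5.85). For the other 8 the interval included 0. Without CDK6-WT replicate 2 the intervals of NRF-1 and YY1 included 0, without CDK6-K43M replicate 1 that of EBF, and without CDK6-K43M replicate 2 those of NRF-1 and EBF. Only ETS kept its interval off 0 under each left-out library. Within the regions longer in replicate 1 the ETS and EBF differences remained (4.07% against 10.6%, and 11.5% against 6.79%), and within those longer in replicate 2 no motif of the 12 had an interval off 0. Within the overlapping regions ETS stood at 7.19% against 6.93% (0.27 points, −3.21 to 5.91), while SP1 was higher in broad regions (6.18, 0.46 to 13.5) and RUNX lower (−5.89, −9.31 to −0.32).

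Between the replicate groups of broad regions, 6 of the 12 motifs differed. Regions longer in replicate 2 held fewer SP1 motifs (GGGGCGGGG, 6.03% against 15.2%, −9.15 points, −14.5 to −3.76), NFY motifs (CCAAT, 14.7% against 24.8%, −10.2, −16.9 to −3.15), ETS motifs (0.431% against 4.07%) and CRE motifs (TGACGTCA, 0.431% against 3.33%). The NRF-1 motif was found in none of 232, which allows a share of up to 1.29%, against 11 of 270 (4.07%). The RUNX motif (TGTGGT) went the other way, at 15.1% against 7.04% (8.05 points, 2.58 to 13.8), and stood at 26.7% in broad regions outside promoters. SP1, NRF-1, ETS and CRE motifs contain CpG, whereas RUNX and NFY motifs do not, and the CpG content differed between these groups as given above. Narrow promoter regions split by replicate number went the same way for all 6. In those longer in replicate 2 against replicate 1, SP1 stood at 4.23% and 14.9% and NFY at 17.6% and 24.7%. ETS stood at 2.28% and 10.6%, CRE at 1.63% and 3.32%, NRF-1 at 0.813% and 4.62%, and RUNX at 16.3% and 8.16%.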

How the data were processed

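CDK6 binding was measured by anti-HA ChIP-seq in Cdk6-/- BCR-ABL+ cells that carried HA-tagged CDK6-WT or CDK6-K43M (n = 2 libraries each). The 2 input libraries were not analysed here. The authors trimmed reads (Trimmomatic 0.36), aligned them to mm10 (BWA 0.7.15), removed blacklisted, multimapping and low-quality reads, and called peaks in each library (MACS2 2.1.0). The deposited lists hold for each peak a fold enrichment, which is a ratio. The deposited −log10 p and −log10 q belong to the summit, whose offset is also given. The deposited score is the −log10 q times 10, rounded down. No read totals are in these lists. Whole reads and the local background at each summit, with the scaling of the treatment, were solved from fold enrichment and −log10 p. In each list 99.9% or more of the peaks matched a whole read within 0.001. Relative depth was the lowest local background of a list, divided by this scaling and by the width of its smallest peak.

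Transcript starts came from GENCODE vM21 (vM13 in the study) and sequence from RefSeq GRCm38.p6. Libraries were grouped by the variant and replicate number in their titles. Variants were compared by exact permutation (two-sided, 6 assignments) and shares by 95% Wilson and Newcombe intervals. The regions named are the 10 widest, 3 on each side of the width limit, up to 4 of the widest per gene list, a few others named as such, 3 per variant among those longer in both of its lists, and Cdk6, Cdk4, Nrf1 and the OXPHOS subunits. The members and gene lists were chosen with earlier results of these data known. Merging, covered length, grouping, read recovery and motif search were tested on simulated data. Alternatives were stricter q-value limits, other widths, windows and merging distances, lists of equal length, and each library left out. Software was Python 3.11.15, scipy 1.17.1, pandas 2.3.3, numpy 2.4.6, statsmodels 0.14.6 and pysam 0.24.0.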

Additional observations from a re-analysis of the deposited data

How the results depend on the processing

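Of the main values of the report, 89 of 132 recomputed ones kept their direction and their side of the threshold, or stayed within 1.5 times for counts. The CpG difference between regions longer in replicate 2 and longer in replicate 1 kept its direction and its side of the threshold under every alternative tried, from −56.8 to −30.5 percentage points. These alternatives, and those of the 2 replicate groups, were chosen after the data were seen.

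The number of broad regions, 641, was 244 when peaks needed a −log10 q of 10, 2131 when gaps of up to 500 bp were bridged, 2200 and 218 at width limits of 1000 and 2000 bp, 353 by the longest single peak, 17 by the base pairs covered in all 4 lists, and 400 to 530 with 1 library left out. Regions longer in replicate 2 and in replicate 1 numbered 103 and 84 at the −log10 q of 10, 603 and 1041 with merging, 435 and 1258 at 1000 bp, 125 and 54 at 2000 bp, and 154 to 258 and 106 to 267 with 1 library left out; by fold enrichment, 147 were higher in replicate 2. Listed genes with a broad region, 97, were 40 at the −log10 q of 10, 261 with merging, 243 and 35 at 1000 and 2000 bp, and 60 to 84 with 1 library left out. Of 12 motifs, 4 differed between broad and narrow regions, 2 at a −log10 q of 5 or 10, 7 with merging and 2 to 5 with 1 library left out. The covered share downstream, 56.9%, was 53.4% at the −log10 q of 10, 53.7% at 1000 bp and 51.5% to 60.1% with 1 library left out.

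The CpG-rich difference from narrow regions reversed to 10.3 points with 1000 bp to either side of the summit and 4.30 at 1000 bp of width, and ran from −17.1 to −3.92 with 1 library left out. The NRF-1 and YY1 motif differences became 0.065 and 0.011 points at 1000 bp of width, and that of EBF −1.09 at the summits of CDK6-WT replicate 2. The fold difference between the variants, −0.23, became 0.20 with means, 0.012 and 0.095 at a −log10 q of 5 and 10, 0.11 and 0.038 at 1000 and 2000 bp, and −1.29 to 1.9602 with 1 library left out. The causes were not tested. With the replicate number as a block, the difference in covered length was 119 bp and that in fold −0.23, each with an exact sign-flip p of 0.5, the smallest 2 pairs can give. Same-numbered libraries deviated together, but the labels do not say what the number marks. Leaving out 1 library leaves 1 against 2, so those tests cannot pass. The lists give no read totals, and fold values at summits with few reads are coarse.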

Other observations

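Abl1, whose product supplies the kinase part of the BCR-ABL fusion, was noticed after the values were seen and lies outside the rule for named regions. Its broad promoter region on chromosome 2 was 4300 bp wide. The lists covered 750 and 4198 bp in CDK6-WT and 1521 and 4249 bp in CDK6-K43M, so that both replicate 2 lists were longer than both replicate 1 lists. The fold at the summit was 6.15 and 9.40 in CDK6-WT and 6.79 and 9.74 in CDK6-K43M, on 18 and 50 and on 23 and 57 reads. The strongest summit lay 3338 bp downstream of the nearest coding start of Abl1, and 89.4% of the region was intron and 10.6% exon. The CpG ratio about this summit, which does not describe the start itself, was 0.08, against a median of 0.49 in the regions longer in replicate 2. What the vector carries of Abl1 was not compared with these peaks.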
